A study of Mus musculus with 96 samples.

Results

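The alternative promoter events of this series are pairs of splice junctions that, in the deposited table of splicing values, carry the annotation altPromoter. They were chosen as the rows with that annotation and a value in at least 20 of 96 cells, which gave 880 events in 539 genes, out of 19295 events of any kind at that coverage and 80855 in the table. All 96 are single cells of C57BL/6 mouse bone marrow, of the genotype ThPOK-/- (a knockout of Zbtb7b, which encodes the transcription factor ThPOK). Cells bearing CD117 were enriched with microbeads, GMP (granulocyte-monocyte progenitors) were sorted from them, and libraries were made with the SMARTer and Nextera XT kits after capture on the Fluidigm C1. The deposited annotation gives a state to 69 cells, 12 of them proNeu-1, 31 IG2 and 26 Multi-Lin-1, and the other 27 have no state. Each cell also carries the number 078 or 079 in its label (48 cells each), whose meaning is not given. All of these cells carry the knockout, so the states were compared within 1 genotype, and wild-type cells were not analysed here. No animal is named, so the 96 cells count as 1 sample. No test was therefore run and SD is over cells.

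Many mammalian genes can begin transcription at more than 1 promoter. Each promoter gives the RNA its own first exon, which is spliced to an exon that the transcripts share. The choice of promoter lets a gene respond to different factors, and it can change the 5′ untranslated sequence or the N-terminus of the protein. In blood cells such choices are well known for Runx1 and for the imprinted Gnas locus. The value of an event is its PSI (percent spliced in), deposited as a fraction from 0 to 1: the proportion of junction reads of the event that use the examined junction. A PSI near 1 means that nearly all junction reads of the event in that cell came from the examined junction. The number of reads behind a value is unknown. A PSI between 0.1 and 0.9 means that junctions from more than 1 start, or other junctions of the event, were read in the same cell. Exon names such as E2.1 are those of the deposited table.

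The label was checked against the GENCODE M21 annotation, in which 81% of the examined junctions and 76.3% of the junctions they were set against are present. It held in the plain sense for the first of the following 2 kinds. In 338 events (38.4%, 215 genes) the junctions left separate annotated first exons for a shared exon, with a median of 607.5 bases between the splice donors. In 75 events (55 genes) they left first exons that overlap, with a median of 73 bases between donors. In these a choice of start and a choice of splice donor cannot be told apart by the junctions. Of the 75, 26 had donors under 50 bases apart. In another 276 events only 1 of the donors ended an annotated first exon, in 38 neither did, and in 109 the junctions shared no end. In 44 events both junctions left the same donor, so that the first exon did not change at all. A donor lay more than 1000 bases outside the annotated span of its gene in 102 events (11.6%), and in 0 of those between annotated first exons. The authors' deposited table predicts a changed N-terminus for 293 of the 880 events, 142 of them among the 338 with separate first exons. The sections below lead with the 338 and the 75, and call them first-exon events.

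Start sites of the RefSeq promoter table (GRCm38.p6) were matched to the first exons, at most 50 bases from an annotated start. Both sides were found for 75 of the 338 events (51 genes), 1 side for 134 and none for 126, and in 3 events both exons matched the same start. The sequences shown are a selection from genes whose first exon differed between states or mixed within cells. Other matched starts of such genes, as of Mrpl30 E1.2 and Yif1b E1.3, are left out. The sequences are limited to first exons with a matched start. They therefore do not always show the exons compared: Arhgdib E2.1, the exon used most, and Hnrnpf E2.4 and E4.1 are named only. Each is up to 120 bases from the region before the start, trimmed to bases that lie in no annotated exon, and is written 5′ to 3′ on the strand of the gene. Capitals mark a match, on either strand, to 1 of 5 motifs. The TATA box was searched as TATAAA and the CCAAT box by the letters of its name. The GC box was searched as GGGCGG, the core of ETS factor sites as CCGGAAG, and the site of GATA factors as AGATAA. No motif of the set holds another.
Arhgdib E1.1: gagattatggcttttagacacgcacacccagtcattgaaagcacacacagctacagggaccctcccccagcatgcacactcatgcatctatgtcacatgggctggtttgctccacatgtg
Arhgdib E3.1: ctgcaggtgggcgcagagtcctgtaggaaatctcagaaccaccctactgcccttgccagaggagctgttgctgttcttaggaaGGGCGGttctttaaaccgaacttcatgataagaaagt
Rgs19 E1.6: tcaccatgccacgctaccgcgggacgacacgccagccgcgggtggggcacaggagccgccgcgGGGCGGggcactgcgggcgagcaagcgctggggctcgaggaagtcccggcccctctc
Rgs19 E2.2: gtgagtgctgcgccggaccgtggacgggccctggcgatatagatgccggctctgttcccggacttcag
Rnh1 E1.1: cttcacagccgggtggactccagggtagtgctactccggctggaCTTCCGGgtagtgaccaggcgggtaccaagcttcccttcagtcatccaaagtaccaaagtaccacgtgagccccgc
Atp5g1 E1.1: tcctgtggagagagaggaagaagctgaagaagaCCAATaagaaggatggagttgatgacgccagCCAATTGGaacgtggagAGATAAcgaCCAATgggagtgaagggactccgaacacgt
Hnrnpf E1.2: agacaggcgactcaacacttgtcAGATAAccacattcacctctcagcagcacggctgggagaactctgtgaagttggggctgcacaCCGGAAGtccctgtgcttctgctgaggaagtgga
Set E3.1: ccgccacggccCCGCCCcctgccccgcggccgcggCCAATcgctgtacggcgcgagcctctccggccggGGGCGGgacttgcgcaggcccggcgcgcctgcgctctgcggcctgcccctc
The Arhgdib sequences are chr6:136941900-136942019, minus strand, and chr6:136941504-136941623, minus strand. Those of Rgs19 are chr2:181693978-181694097, minus strand, and chr2:181693811-181693878, minus strand. Rnh1 E1.1 is chr7:141172858-141172977, minus strand, and Atp5g1 E1.1 is chr11:96075671-96075790, minus strand. Hnrnpf E1.2 is chr6:117900204-117900323, plus strand, and Set E3.1 is chr2:30066336-30066455, plus strand.

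The paired starts differ in letters within a gene. The Arhgdib window before E3.1 holds 1 GC box close to the start, and the window before E1.1 holds none of the motifs. The 250 bases before these starts are 52.4% and 44.4% G or C, with an observed over expected CpG ratio of 0.234 and 0.164. Both Rgs19 starts lie in CpG-rich sequence, at 64.8% and 74.8% G or C and CpG ratios of 0.763 and 0.987. These windows overlap, and the one before E2.2 takes in exon E1.6, so they are not independent. The sequence shown for E2.2 begins at the base after the donor of E1.6. Over the matched starts of events with separate first exons, the 250 bases before the start held a GC box in 54.8% of 115 upstream and 59.3% of 91 downstream starts, against 33% of all 32544 promoters of the table. An ETS core was present in 9.57% and 18.7% against 6.95%, a CCAAT box in 37.4% and 34.1% against 33.8%, and a GATA site in 7.83% and 12.1% against 9.97%. A TATA box was present in 5.22% and 4.40%, against 12.3%. The median CpG ratio was 0.767 and 0.783, against 0.378 over all promoters. Upstream and downstream starts were thus alike in CpG ratio, and both were richer in CpG than the promoter table as a whole. The members were chosen by coverage, which favours genes with many reads, and the part of gene level in these shares was not tested. A match describes letters only.

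Coverage set how much of each cell could be read. An event had a value in a median of 34 cells, 26 events had one in 90 or more and 299 had one in 20 to 29. At the edge of the rule stood 48 events with 20 values, such as 3110040N11Rik (0.1 ± 0.308) and Arid4a (1 ± 0), given as mean PSI ± SD. Just outside it stood 49 with 19 values, such as Acot9 (0.84 ± 0.374) and Alkbh6 (1 in every cell). A cell held a median of 391 member values, from 1 to 651, and the medians by state were 506 for proNeu-1, 481 for IG2, 345 for Multi-Lin-1 and 269 for cells with no state. The number of member values rose with the number of genes detected per cell (Spearman's coefficient 0.940, Pearson's r 0.928, 96 cells), as a description of cells of 1 sample. Genes detected had medians of 4127.5, 3940, 2950 and 2613 in the same order. Of the host genes, 460 of 530 (86.8%) had a higher mean log2(TPM + 1) in IG2 than in Multi-Lin-1, against 77.7% of the 5719 genes detected (TPM of 1 and above) in at least 20% of cells. The number of genes detected therefore moved with state in every comparison that follows, and its part in the differences was not tested. Markers of GMP (8 of 8, among them Mpo and Elane) were present in at least 50% of cells, as were 4 of 5 mast cell or basophil markers. Of 5 T or NK cell markers only Nkg7 was, and none of the erythroid, megakaryocyte, eosinophil, monocyte, late neutrophil or B cell lists reached that share. Summed TPM of the GMP markers ran from 47929 to 93690 for proNeu-1, 10065 to 71340 for IG2, 26.5 to 13372 for Multi-Lin-1 and 3.26 to 16310 for cells with no state. Summed TPM of the mast cell or basophil markers had a median of 2781 in cells with no state and of 453 to 992 in the 3 states. The eosinophil sum reached 300517 in a cell with no state and the late neutrophil sum 78120 in a Multi-Lin-1 cell, both with a median of 0 or near it in those sets. The part of such cells in the state means was not tested.

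In single cells, PSI was mostly near 0 or near 1. Of 36366 member values, 51.6% were 0.1 or less, 42.4% were 0.9 or more and 5.96% lay between (2167 values, 95% Clopper-Pearson interval 5.72% to 6.21%, for the counting of values only, which share cells and genes). Exactly 0 was listed for 49.4% and exactly 1 for 39%. The intermediate share over all 19295 events was 3.5%. By other annotations it was 7% for alternative C-termini, 6.18% for alternative 5′ and 5.56% for alternative 3′ splice sites, 5.64% for trans-splicing, 3.97% for cassette exons, 2.27% for retained introns and 2.07% for events with no annotation. Promoter events thus lay beside splice site choices and trans-splicing, above cassette exons and introns and below alternative C-termini. Within the members the share was 5.73% for separate first exons, 10.4% for overlapping ones, 3.98% where 1 donor ended an annotated first exon and 11.6% where the donor was shared.

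**Figure D1:**
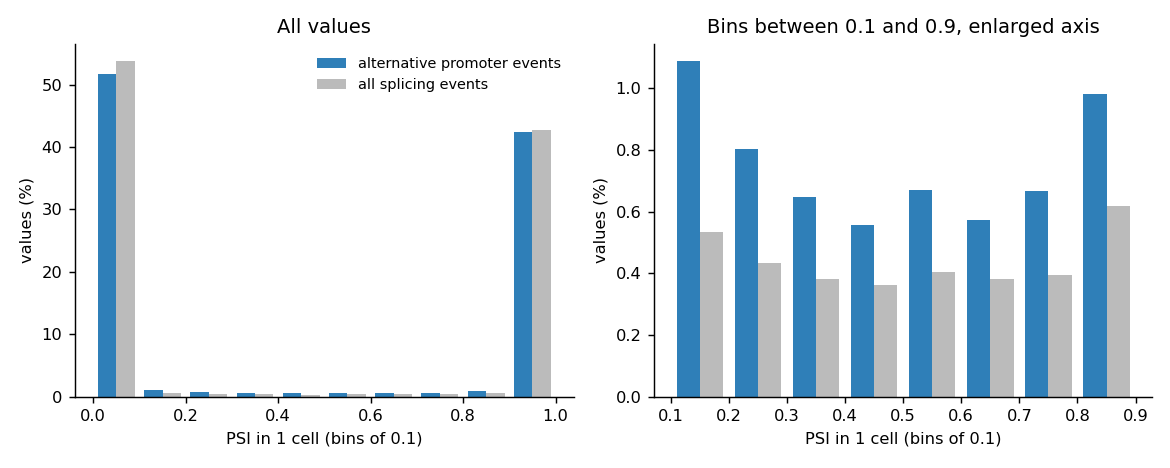
Distribution of PSI values per cell in bins of 0.1, as percent of all values, for the 880 alternative promoter events (blue) and all 19295 events (grey). The right panel enlarges the bins between 0.1 and 0.9. Values of 0.1 or less and of 0.9 or more make up 51.6% and 42.4% of promoter values.

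Intermediate values were most frequent where the host gene was most abundant, though their share did not rise at every step. All members were pooled, so events with many intermediate cells, such as that of Rps18 described last, weigh on these shares. Intermediate values made up 2.01% of member values where the host gene was under a TPM of 1 in the same cell, 4.61% at 1 to 10, 4.06% at 10 to 100, 5.31% at 100 to 1000 and 10.4% at 1000 or more. By state the share was 7.14% for proNeu-1, 6.54% for IG2, 4.68% for Multi-Lin-1 and 5.26% for cells with no state. Over all events it was 4.22%, 3.87%, 2.94% and 2.72% in that order, so proNeu-1 and IG2, with the most genes detected, had the higher shares in both. In cells numbered 078 and 079 it was 5.90% and 6.02%. Read counts per junction were not used here, and the part of sampling few reads in these shares was not tested.

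**Figure D2:**
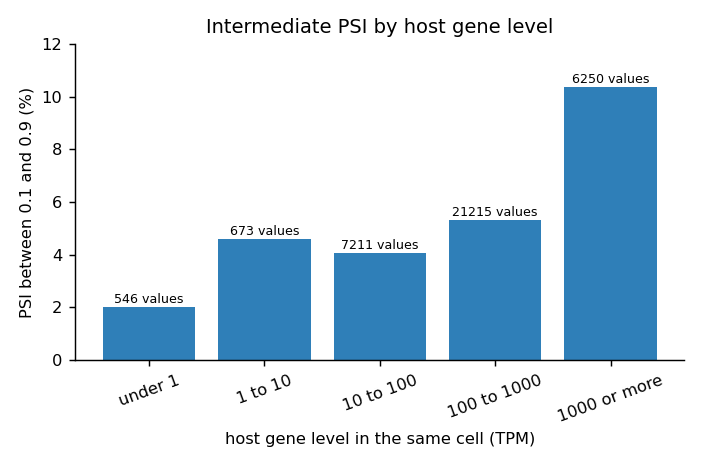
Share of member PSI values between 0.1 and 0.9 (percent, bars from 0) by the host gene's level in the same cell (TPM). The bar at a TPM of 1000 or more reaches 10.4%, and that under a TPM of 1 reaches 2.01%.

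Across cells, 389 events had a mean PSI of 0.1 or less, 299 of 0.9 or more, and 192 events (21.8%, in 137 genes) lay between. Even in those 192 events, 19.9% of single-cell values were intermediate and the rest were split between 42.4% low and 37.7% high. The same figure over the 2147 events of all kinds with such a mean was 17.3%. In first-exon events of intermediate mean the share was 18.6% for separate exons (79 events, 54 genes) and 19.3% for overlapping ones (35 events, 27 genes). An intermediate mean was therefore mostly made of cells in which the examined junction was near 0 or near 1. A value near 0 does not show that only 1 other junction was read. Where both junctions of a pair were examined in turn (129 pairs), their PSI values summed to 0.95 or more in 93.3% of 5300 cell values and to under 0.5 in 3.23%.

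Upstream and downstream first exons, ordered by their splice donors, were both in wide use. Taking 1 first-exon event per gene, that with values in most cells, the mean use of the upstream exon was 0.573 ± 0.430 (SD over 256 genes). Use was the PSI where the upstream exon was examined, and otherwise 1 minus the PSI of the downstream exon. The latter also counts any other junctions of the event. The upstream exon was at 0.9 or more in 111 genes, at 0.1 or less in 81 and between in 64 (25%). Separate exons divided into 96, 71 and 43 genes, and overlapping ones into 15, 10 and 21. Genes with overlapping first exons thus lay between the ends in 45.7%, against 20.5% of genes with separate ones. The mean over genes differed little between cells, at 0.608 ± 0.0431 (SD, n = 95 cells).

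The members with values in most cells came from the translation machinery, and apart from 1 Rps18 event, described last, nearly always showed 1 of their junctions. Another Rps18 event, whose donors lie 1 base apart outside the annotated gene, had a mean of 0.0174 ± 0.0524 in 94 cells. Rps15 had values in 95 cells, with a mean PSI of 0.994 ± 0.0241 for E1.1, the only annotated first exon of its event. Rpl11 E1.2, separated from E2.2 by 378 bases, was at 0.995 ± 0.0162 in 93 cells, and Rps15a E1.1 at 0.999 ± 0.00447 in 94. Rpl18 and Rpl21 used their upstream exon at 0.998 and 0.987. Rpl10 E1.5 was near 0, at 0.00506. All encode proteins of the ribosome, and such genes have many near-identical processed copies, between which the counting could have split reads. Rpl35a, another ribosomal protein, was mixed instead. Its overlapping first exons end 45 bases apart. E1.3 had a mean of 0.831 ± 0.215 over 92 cells, and 44 of the 92 cells were intermediate. By state the lowest, median and highest values were 0.625, 0.841 and 0.992 for proNeu-1, 0.473, 0.813 and 0.989 for IG2, 0, 0.992 and 1 for Multi-Lin-1 and 0.0294, 0.995 and 1 for cells with no state. The ranges overlapped, and the medians of IG2 and proNeu-1 were lower than those of the 2 shallower sets of cells, where most cells were near 1.

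Genes that showed 1 first exon in nearly all cells were found in most of the lists examined. Lists of genes by role, chosen with earlier results of these data known, held few members: 3 of 64 haematopoietic transcription factors, 7 of 56 receptors and signalling proteins, 7 of 40 of the cytoskeleton, 10 of 59 of RNA processing and translation, 11 of 58 of cell cycle and chromatin, 10 of 48 of energy metabolism and 3 of 37 granule proteins. Tpm3, a tropomyosin with muscle and non-muscle starts, had E3.4 at 0.985 ± 0.110 in 65 cells. Actb (actin) had E1.6 at 0.998 ± 0.0176 in 83 cells. Gpx4, a peroxidase of lipid peroxides, had E3.1 at 1 in 77 cells.

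Prtn3 (proteinase 3) had its upstream E1.1, 5021 bases before E2.1, at 0.00382 ± 0.0235 in 50 cells. Cd63, a tetraspanin of granules, had E2.1 at 0.997 ± 0.0166 in 77 cells. Btk, a kinase of B and myeloid cells, had E1.1 at 0 in 20 of 20 cells. A count of 0 of 20 allows a share of cells with that junction of up to 15% (3 cells of the total, counting error only). Idh1 (isocitrate dehydrogenase) had E2.1 at 1 in 24 cells, with E1.1 lying 7315 bases upstream at 0, which allows up to 12.5%. Cd37, a tetraspanin of leukocytes, had E1.2 at 0.0639 ± 0.225 in 37 cells, with 1 cell at 0.9 or more and 2 intermediate. Elf1, an ETS factor, left the upstream E1.1 almost unread, at 0.000406 on average in 44 cells, 34133 bases before E2.1. Its E2.1, set against an intronic start that is no annotated first exon, averaged 0.858 ± 0.310 in 19 IG2 and 0.656 ± 0.469 in 10 Multi-Lin-1 cells. That difference of 0.202 was 0.0825 in cells numbered 078 and 0.306 in 079.

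Arhgdib had the largest share of mixed cells among first-exon events. It encodes a GDP dissociation inhibitor of small GTPases found mainly in blood cells, and its 4 first exons, E1.1, E2.1, E3.1 and E4.1, are joined to E6.1 (chromosome 6, minus strand, GRCm38, acceptor at 136933773). Their donors lie at 136941813, 136941651, 136941438 and 136939511. In 89 cells the mean PSI was 0.0413 ± 0.107 for E1.1, 0.594 ± 0.358 for E2.1, 0.214 ± 0.291 for E3.1 and 0.0355 ± 0.116 for E4.1. E2.1 was intermediate in 48 of the 89 cells, high in 23 and low in 18. The host gene was abundant, at a mean log2(TPM + 1) of 12.04 ± 0.60 for proNeu-1, 11.22 ± 0.82 for IG2, 9.80 ± 3.04 for Multi-Lin-1 and 10.58 ± 1.32 for cells with no state.

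E2.1 of Arhgdib was highest in proNeu-1 and lowest in cells with no state. Its lowest, median and highest values were 0.649, 0.896 and 0.993 in proNeu-1 (12 cells), 0.02, 0.823 and 1 in IG2 (31 cells), 0, 0.505 and 1 in Multi-Lin-1 (22 cells), and 0, 0.355 and 0.989 in cells with no state (24 cells). No proNeu-1 cell fell below 0.649, while the other sets spanned nearly the whole scale, so all groups overlapped. The means were 0.854 ± 0.121, 0.732 ± 0.260, 0.506 ± 0.391 and 0.367 ± 0.365. IG2 exceeded Multi-Lin-1 by 0.225, less than the SD over the cells of both states (0.337). That difference was 0.0601 in cells numbered 078 and 0.392 in those numbered 079. The shared sign was a condition of naming, here and for the other differences named by size, and the sizes differ. The PSI values of the 4 first exons summed to a mean of 0.964 in proNeu-1 and 0.971 in IG2. The mean sum was 0.828 in Multi-Lin-1 and 0.785 in cells with no state, with a lowest sum of 0 in both. A low E2.1 in those 2 sets therefore need not mean use of another of the 4 exons.

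E3.1 of Arhgdib was highest in cells with no state and lowest by mean in proNeu-1, while IG2 and Multi-Lin-1 were close, at means of 0.166 ± 0.220 and 0.179 ± 0.265. Its lowest, median and highest values were 0.00219, 0.0341 and 0.164 for proNeu-1, 0, 0.111 and 0.938 for IG2, 0, 0.0203 and 0.987 for Multi-Lin-1 and 0, 0.274 and 1 for cells with no state. Cells with no state held most of the high values, 5 of 24 at 0.9 or more, and proNeu-1 none. The highest values of IG2 and Multi-Lin-1, 0.938 and 0.987, also passed 0.9. E4.1 was intermediate in 7 of 22 Multi-Lin-1 cells, with a mean of 0.104 ± 0.2, and did not exceed 0.000977 in any of the 12 proNeu-1 cells. Both E2.1 and E3.1 were above 0 in 63 of 89 cells (70.8%). By state this was 12 of 12 for proNeu-1, 27 of 31 for IG2, 10 of 22 for Multi-Lin-1 and 14 of 24 for cells with no state.

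The PSI of Arhgdib E2.1 was then set beside the level of Elane (neutrophil elastase). Across 89 cells E2.1 had a Spearman's coefficient of 0.394 with the log2(TPM + 1) of Elane, 0.377 with genes detected and 0.305 with its own gene's level. Within IG2 the coefficient with Elane was 0.146, within Multi-Lin-1 it was -0.0667, within proNeu-1 -0.503 and within cells with no state 0.154. The pooled relation was thus larger than that within any set of cells in the same direction, and the sets also differ in genes detected. These are descriptions of cells of 1 sample.

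**Figure D3:**
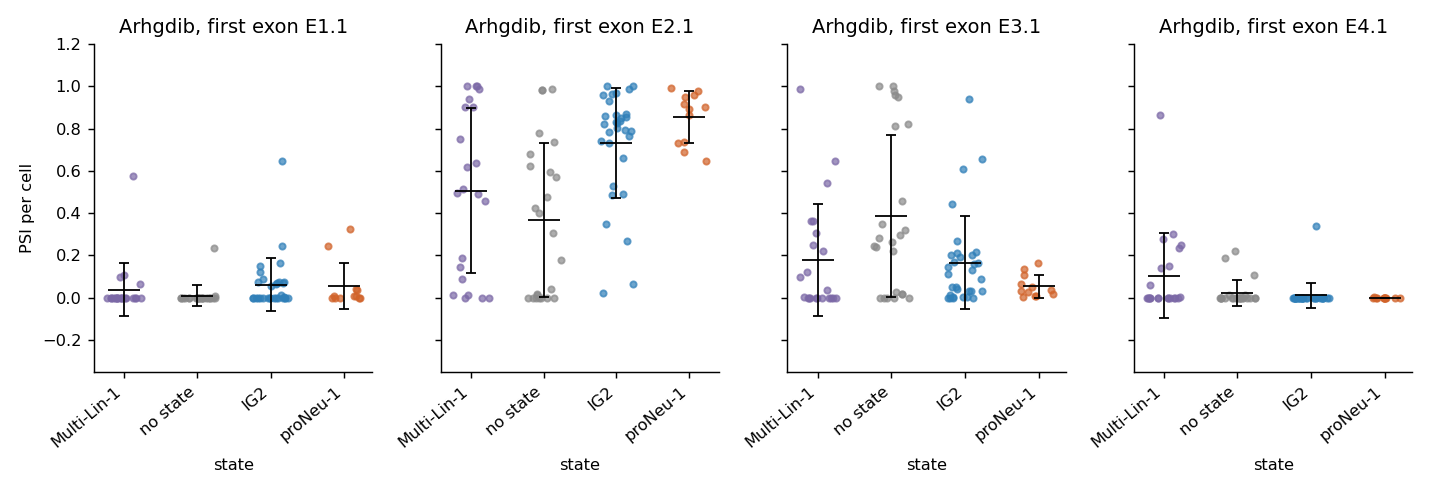
PSI per cell (points) of the 4 Arhgdib first exons by state, with mean and SD over cells as black bars. E2.1 is between 0.649 and 0.993 in all 12 proNeu-1 cells and spreads from 0 to 1 in Multi-Lin-1. E3.1 exceeds 0.9 in 5 cells with no state, and its highest values in IG2 and Multi-Lin-1 are 0.938 and 0.987.

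Other signalling genes held fewer cells. Rgs19, a regulator of G protein signalling, chooses between E1.6 and E2.2, whose donors on chromosome 2 lie 516 bases apart. E1.6 had a lowest, median and highest value of 0, 0 and 1 in 15 IG2 cells and of 0, 0.606 and 1 in 8 Multi-Lin-1 cells. It was 0, 0.0175 and 0.422 in the 3 proNeu-1 cells and 1 in each of the 3 cells with no state. IG2 was mostly low and Multi-Lin-1 split between the ends, and the difference of means, IG2 minus Multi-Lin-1, was -0.264, with -0.407 in cells numbered 078 and -0.178 in those numbered 079. Gnas encodes the stimulatory G protein alpha subunit. Its E6.6, which lies 2493 bases before E6.21, was at 1 or near it in 4 of 11 IG2 cells and at 0.1 or less in the other 7, with no cell between. In Multi-Lin-1 5 of 6 cells were at 0.1 or less, as were 5 of 6 in proNeu-1 and 5 of 5 cells with no state. The difference of means, proNeu-1 minus IG2, was -0.258, with -0.486 in cells numbered 078 and -0.0887 in 079.

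Ptpre, a receptor tyrosine phosphatase, lies at the edge of the rule with 20 cells. Its E6.1 averaged 0.577 ± 0.485, with 7 low, 2 intermediate and 11 high cells, and only 1 of its donors ends an annotated first exon. Csnk2b, the regulatory subunit of casein kinase 2, had its upstream E1.2 above 0 only in a few Multi-Lin-1 cells. It was listed at 0 in 18 IG2, 10 proNeu-1 and 8 cells with no state, and reached 1 in 1 of 11 Multi-Lin-1 cells, with 2 others intermediate. The Multi-Lin-1 mean was 0.175 ± 0.358. The difference, IG2 minus Multi-Lin-1, was -0.175, under the 0.2 used for a call, and the medians did not differ. So few cells do not exclude use of E1.2 in the other sets. Yif1b, a protein of transport between endoplasmic reticulum and Golgi, had E1.3 at 0.379 ± 0.453 in 18 IG2 and 0.037 ± 0.0907 in 6 proNeu-1 cells. The difference of -0.342 was -0.158 in cells numbered 079, and under 078 only 2 proNeu-1 cells had a value. Dctn6, a dynactin subunit, had E1.4 at 1 in 9 of 9 Multi-Lin-1 cells and at 0.778 ± 0.441 in 9 cells with no state.

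Hnrnpf, an RNA-binding splicing regulator, has first exons over more than 10000 bases. Its last, E4.1, had a lowest, median and highest value of 0, 0.551 and 0.941 in 9 proNeu-1 cells, against 0, 0 and 1 in 26 IG2 cells. It was 0, 0 and 0.923 in 14 Multi-Lin-1 cells and 0, 0 and 0.889 in 14 cells with no state. In proNeu-1 4 cells were intermediate and 1 was high, while the median of each other set was 0, and the ranges overlapped. The mean of proNeu-1 exceeded that of IG2 by 0.276, with 0.227 in cells numbered 078 and 0.303 in 079. E2.4, set against E2.7, averaged 0.226 in proNeu-1 and 0.455 in IG2.

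Rnh1, the ribonuclease inhibitor, joins E1.1 or E2.2 to E3.1 (chromosome 7, donors 4066 bases apart). E2.2 was at 1 in each of 6 Multi-Lin-1 cells. Its lowest, median and highest values were 0, 0.822 and 1 in 16 IG2 cells, 0, 0.177 and 1 in 6 proNeu-1 cells, and 0, 0.5 and 1 in 6 cells with no state. The means were 1 in Multi-Lin-1, 0.642 ± 0.402 in IG2 and 0.381 ± 0.473 in proNeu-1. The cells with no state split by label number, with 3 of 3 at 0 under 078 and 3 of 3 at 1 under 079, and 5 of the 6 Multi-Lin-1 cells were numbered 079. The difference of proNeu-1 from IG2 was -0.233 under 078 and -0.249 under 079. Set, a histone chaperone, used E2.7 in most cells. Its downstream E3.1, 4613 bases on, was at 0.9 or more in 3 of 8 cells with no state, 1 of 10 in Multi-Lin-1, 1 of 24 in IG2 and 0 of 8 in proNeu-1. The groups overlapped, with medians of 0 in all 4. The mean of cells with no state exceeded that of Multi-Lin-1 by 0.216, with 0.281 in cells numbered 078 and 0.133 in 079.

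Nfe2 encodes a subunit of an erythroid and megakaryocytic factor. Its downstream E4.1, set against E2.1, was at 0.1 or less in 26 of 31 cells. It was listed at 0 in 8 of 8 Multi-Lin-1 cells, and was intermediate in 2 and high in 2 of 12 cells with no state. Its mean there was 0.230 ± 0.388, with 0.167 in cells numbered 078 and 0.358 in 079. Tnrc6b, a protein of microRNA silencing, had few intermediate cells, 5 of 44. Its E5.2 averaged 0.661 ± 0.485 in 12 IG2 cells and 0.434 ± 0.467 in 15 Multi-Lin-1 cells, with values from 0 to 1 in both, and only 1 of the exons involved is an annotated first exon. The difference of 0.227 was 0.318 in cells numbered 078 and 0.169 in 079.

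Atp5g1, subunit c of the ATP synthase, has first exons E1.1 and E2.2 with donors 70 bases apart (chromosome 11). Both matched 1 RefSeq start, so a choice of start and a choice of splice donor cannot be told apart here. E2.2 had a lowest, median and highest value of 0, 0.325 and 0.973 in 12 proNeu-1 cells, 0, 0.0898 and 0.761 in 30 IG2 cells, 0, 0 and 0.610 in 19 Multi-Lin-1 cells and 0, 0 and 1 in 19 cells with no state. In proNeu-1 9 of 12 cells were intermediate, against 14 of 30 in IG2 and 3 of 19 in Multi-Lin-1. The mean in proNeu-1 exceeded that in IG2 by 0.260, close to the SD over the cells of both (0.262), with 0.280 in cells numbered 078 and 0.244 in 079. The gene's level in these states was a log2(TPM + 1) of 9.36 ± 1.5 and 9.52 ± 1.34.

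Mrpl30, a protein of the mitochondrial ribosome, used E1.2 against E3.1 more in cells with no state. Its values there were 0, 0.304 and 1 (lowest, median, highest, 14 cells), against 0, 0 and 0.843 in 12 Multi-Lin-1, 0, 0 and 1 in 22 IG2 and 0, 0 and 1 in 9 proNeu-1 cells. The mean was 0.454 ± 0.484 against 0.0858 ± 0.243 in Multi-Lin-1, a difference of 0.368 that was 0.203 in cells numbered 078 and 0.379 in 079. Mrps17, of the small subunit, used E1.15 at 0.453 ± 0.463 in 14 IG2 and 0.191 ± 0.366 in 9 Multi-Lin-1 cells. The difference of 0.262 was 0.134 in cells numbered 078 and 0.522 in 079. Ube2d3, a ubiquitin-conjugating enzyme, had E3.1 at 0.945 ± 0.174 in 10 cells with no state and 0.584 ± 0.465 in 8 Multi-Lin-1 cells. This difference was 0.361, with 0.574 in cells numbered 078 and 0.274 in 079.

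**Figure D4:**
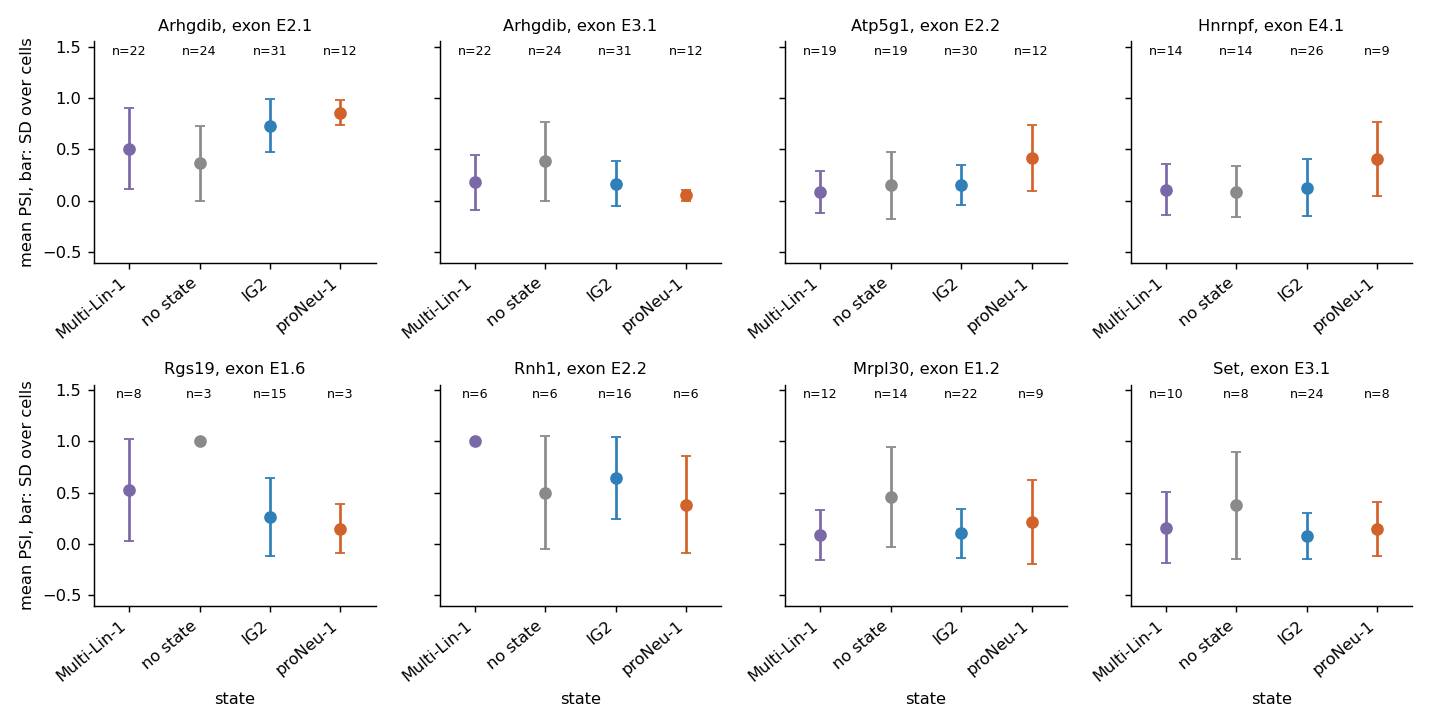
Mean PSI (points) and SD over cells (bars) of 8 first-exon events by state, with the number of cells above each. Bars may pass 0 and 1 because they show SD around the mean. Atp5g1 E2.2 and Hnrnpf E4.1 are highest in proNeu-1 (0.416 and 0.405), and Mrpl30 E1.2 and Set E3.1 in cells with no state (0.454 and 0.375).

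The state comparisons were then counted over all members. A member was called where mean PSI differed by 0.2 or more with at least 5 cells in each state. Between IG2 and Multi-Lin-1, 38 of 723 members (5.26%, 34 genes) were called, 22 higher and 16 lower in IG2, against 3.33 percent of all 14970 events (1.57 higher and 1.76 lower). The genes named next were listed after their values were seen. Of the 38 events, 14 were events with separate first exons, in Arhgdib, Atp8b4, Cops7a, Dnpep, Gnas, Mat2b, Ncoa4, Nsd1, Pnrc2, Rgs19, Rnh1 and Snx10. Another 6 had overlapping ones. Between proNeu-1 and IG2, 22 of 640 (3.44%) were called, 9 higher and 13 lower, against 2.76 percent of all events (1.47 and 1.29). Between cells with no state and Multi-Lin-1, 36 of 583 (6.17%) were called, 22 higher and 14 lower, against 4.54 percent (2.33 and 2.2). Cells numbered 078 and 079 (48 cells each), numbers whose meaning is not given, gave 29 of 880 (3.30%) against 1.88 percent of all events.

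The members' shares lay near the background once events of like mean were set side by side. Among events with an all-cell mean between 0.1 and 0.9, 21.7% of 143 members and 22.4% of 1584 events were called between IG2 and Multi-Lin-1. For proNeu-1 against IG2 it was 16.8% of 119 and 20.1% of 1425, and for cells with no state against Multi-Lin-1 27.7% of 112 and 27% of 1218. Nothing particular to promoter events is shown by these counts. The median difference was 0 in each comparison, for members and for all events. By list, 2 members were called higher in IG2 among receptors and signalling (Arhgdib and Gnas), 1 among transcription factors (Elf1) and 1 among cell cycle and chromatin genes (Mcm2), with 0 lower in any list. These lists had 9, 5 and 25 events compared. In the lists of the cytoskeleton, RNA processing, energy metabolism and granules, 0 of 10, 0 of 16, 0 of 13 and 0 of 4 were called. With 3.33 percent called over all events, lists of this size show nothing about their genes. Of the 24 differences named by rule, 0 exceeded the SD over the cells of both states, and in 9 the medians did not differ.

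**Figure D5:**
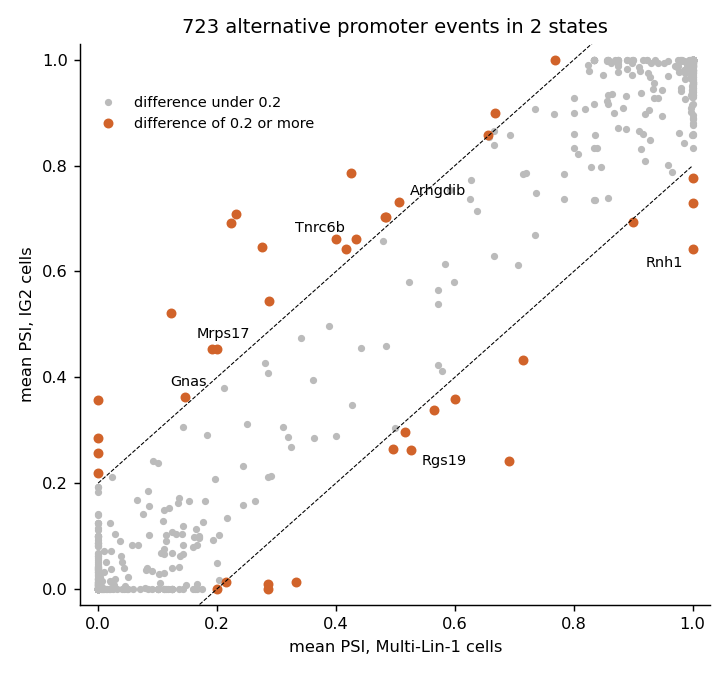
Mean PSI of 723 alternative promoter events in Multi-Lin-1 (horizontal) and IG2 (vertical), with dashed lines at a difference of 0.2. Most points sit in the corners near 0 and 1, and the 38 called events (orange) lie mainly among those of intermediate mean, 22 above and 16 below.

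The highest shares of intermediate values belonged to members that are not changes of first exon. Rps18, a ribosomal protein, had 89 of 94 cells between 0.1 and 0.9 for an event whose junctions share 1 donor and end at acceptors 2 bases apart, with a mean of 0.323 ± 0.151. Hnrnpa2b1, a splicing regulator, had 59 of 62 cells between, with a mean of 0.418 ± 0.143, and Gapdh, a glycolytic enzyme, 45 of 78, with 0.673 ± 0.303. In both, the junctions share no end. The donor lies outside the annotated gene by 25368 bases in Rps18, 220145 in Hnrnpa2b1 and 153973 in Gapdh. Rps18 stayed within 0.306 and 0.364 as mean over the 4 sets of cells, so that mixed values were here the rule in every state. All 3 genes have many processed copies in the mouse genome, and the part of reads from such copies was not tested. Eif4e2, a cap-binding protein whose member event also shares its donor, had its junction from E6.2 to E10.1 at 0.257 ± 0.397 in 12 IG2 cells and at 0 in 8 Multi-Lin-1 cells.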

How the data were processed

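Splicing and expression were measured in 96 single cells by full-length single-cell RNA-seq. The authors deposited each event's PSI as a fraction of junction reads, named MultiPath PSI, and each gene's level as log2(TPM + 1), from RSEM by the deposited table's name. How junctions were counted is not given in the sources used here. The submitters' processing notes name Bowtie2, RSEM, STAR, mm9 and mm10, without roles. Coordinates in the splicing table fit GRCm38 (mm10) junctions of GENCODE M21. States were taken from the deposited annotation, and how they were made is not given in the sources used here. Another 1142 PSI columns and 511 state entries belong to cells that the labels used here do not map, and were not used.

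Members had a PSI in at least 20 cells. States were compared by the difference of mean PSI, called at 0.2 with 5 or more cells in each, over all 19295 events. With 1 sample no test was made, and no p-value is given. Events were named by rule: the 10 with values in most cells, up to 8 with the largest difference per comparison with the same sign under 078 and 079, those of listed genes, the 6 with most intermediate values, and up to 4 on each side of the threshold, with 1 event per gene. A few events that the rule names are not reported here. Members and lists were chosen with earlier results of these data known. Alternatives were a difference of 0.3, 8 cells per state, 30 cells per event, 1 event per gene, medians, other intermediate limits and each label number alone. Cells with 100 or more member values, events between 2 annotated first exons, the comparison of 078 with 079 and the restriction to intermediate means were chosen after seeing the data. Counting was tested on simulated data, with larger differences and more cells per group than the limits of 0.2 and 5 cells. The simulation therefore does not show how often unchanged events are called at those limits. Junction depth is unknown, reads carried no molecular identifiers, intervals cover counting error only, and no doublet caller was run. Computation used pandas 2.3.3 and NumPy 2.4.6 in Python 3.11.15, with SciPy 1.17.1 for intervals and rank correlations and matplotlib 3.10.9 for plots.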

Additional observations from a re-analysis of the deposited data

How the results depend on the processing

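The intermediate share of 5.96% was 3.87% with limits of 0.2 and 0.8 and 11.6% strictly between 0 and 1. It was 6.21% for events in 30 or more cells, 5.15% with 1 event per gene and 6.68% for events between 2 annotated first exons. Called members between IG2 and Multi-Lin-1 (38) numbered 9 at a difference of 0.3, 8 with 8 or more cells per state, 20 with values in 30 or more cells and 22 with 1 event per gene. They numbered 6 in cells numbered 078, 21 in 079 and 20 between 2 annotated first exons. For proNeu-1 minus IG2 (22) the same settings gave 6, 7, 12, 13, 14, 5 and 13. For cells with no state minus Multi-Lin-1 (36) they gave 14, 13, 23, 18, 12, 8 and 22. Settings with fewer events or cells compare fewer members: 459 of 723 remained comparable between IG2 and Multi-Lin-1 at 8 cells per state. The share called fell there too, from 5.26% to 1.74%. It fell from 3.44% to 1.96% for proNeu-1 minus IG2 and from 6.17% to 3.83% for cells with no state minus Multi-Lin-1. For IG2 minus Multi-Lin-1 it was 1.89% in cells numbered 078 and 5.65% in 079. The shares over all events at these settings are not given here. Medians gave 34, 22 and 24 calls, and cells with 100 or more member values 36, 22 and 36. None of the 24 named differences reversed, which their choice by the same sign under 078 and 079 fixes for each label number alone wherever both had enough cells. Of these, 2 moved under medians, both of Tnrc6b. E5.2 moved to 0.810 in IG2 minus Multi-Lin-1. The reciprocal junction, from E4.1, moved to -0.810 in cells with no state minus Multi-Lin-1. By medians, E5.2 was thus higher than in Multi-Lin-1 in both comparisons. No paired analysis was possible because the results come from no test. The label numbers 078 and 079 occur in every state, and values within each are given in their place.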
